A study of Homo sapiens with 12 samples.

Results

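The genes described here are 54 interferon-stimulated genes other than IFI6, taken by name from the 19771 protein-coding genes of the deposited gene table. TE-1, a cell line from a human oesophageal cancer, was grown in DMEM with serum, transfected with a vector and sequenced 48 h later as total RNA libraries. There were 4 groups of 3 libraries: OE_IFI6 received a vector that overexpresses IFI6, OE_control the non-specific control of that vector, sh_IFI6 an interference vector against IFI6, and sh_control the control of the interference vector. The question of the study is what else changes when the level of IFI6, itself an interferon-stimulated gene, is changed. All 12 libraries came from transfected cells of 1 line. The labels name neither the promoter, the hairpin nor the control insert, and they leave unsaid if replicate libraries were grown as separate cultures. The p-values thus reflect the spread between these libraries, which may be technical.

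Type I interferons bind a receptor of IFNAR1 and IFNAR2 whose kinases, JAK1 and TYK2, phosphorylate STAT proteins, STAT2 among them. With IRF9, STAT2 is part of the complex ISGF3, which binds a DNA element called the interferon-stimulated response element (ISRE) near the start of its target genes. The targets encode sensors of foreign nucleic acid, antiviral effectors and regulators of the pathway, and they are known to be induced in epithelial cells by infection and by nucleic acid in the cytoplasm.

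Levels are in FPKM, which scales fragment numbers by the length of the transcript and the size of the library. The libraries summed to between 325877 and 357145 FPKM, with 10650 to 10987 protein-coding genes at 1 FPKM or more. Numbers of reads were not used, and the counting error of genes near 1 FPKM has no direct estimate. Steps among the low values gave a relative depth within a factor of 1.28, but in some libraries the steps were unclear. IFI6 averaged 312 ± 45.0 FPKM (SD, n = 3) in OE_IFI6, 24.7 ± 5.92 FPKM in OE_control, 14.6 ± 0.646 FPKM in sh_IFI6 and 23.4 ± 1.97 FPKM in sh_control. The OE_control libraries differed from the rest over all genes tested: a principal component with 23.1% of the variance placed them at -30.6, -22.2 and -22.3, and the remaining libraries from 5.9 to 11.3. For the interferon-stimulated and pathway genes that passed in a comparison with OE_control, OE_IFI6 against sh_control, which does not use it, is given as well. Of the markers checked, the simple epithelial keratins KRT8 and KRT18 were abundant (706 to 1157 and 355 to 543 FPKM), while the squamous markers KRT5 and SOX2 and the epithelial marker EPCAM were listed at 0 in every library. PITX1, of the same squamous list, stood at 50.7 to 71.7 FPKM. Of 11 leukocyte markers, 7 were under 0.1 FPKM in all libraries, and CD3E, CD3D, MS4A1 and ITGAM were listed at 0. Markers averaging 1 FPKM or more were 2 of 5 general epithelial, 2 of 6 squamous, 2 of 11 leukocyte and 4 of 5 fibroblast. The fibroblast markers summed to between 5.54 and 7.56 FPKM, and all 3 endothelial markers stayed under 0.1 FPKM.

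The ISRE core was common in front of these genes. RefSeq (GRCh38.p14) gave the 250 bases before and 50 after a transcription start for 42 of the 54 genes (DDX58 under its newer symbol RIGI), and the other 12 had no entry: DHX58, IRF2, IRF3, IRF7, USP18, IFIT2, OASL, OAS2, MX2, IFITM2, TRIM22 and PML. Its letters, GAAA followed by any 2 bases and GAAA, were searched on both strands and occurred in 26 of the 42 (61.9%) and in 1195 of 27305 genes in the promoter table (4.38%). The interferon-gamma element TTCNNNGAA was found in 11 of 42 (26.2%) against 9.38% of all genes, and the heat shock element (GAA, TTC and GAA, each 2 bases apart) in 0 of 42 against 0.608%. Each motif was counted whether or not its matches overlapped those of another. The ISRE letters were present for all 5 matched genes that fell in OE_IFI6 against OE_control, for 5 of 9 matched genes under 0.2 FPKM in every library, and for 16 of the 28 other matched genes. The stretches below show the element in the 5 that fell and in IFIT5, which rose there, and TRIM14, which was lower in OE_control than in sh_control, followed by 4 genes that were nearly silent. Capitals mark the match (written TTTC, 2 bases, TTTC where the element lies on the opposite strand), and each runs 5′ to 3′ in the direction of its gene.
ISG15, chr1:1013364-1013413, plus strand: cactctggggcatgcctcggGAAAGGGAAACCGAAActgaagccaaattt
BST2, chr19:17405731-17405780, minus strand: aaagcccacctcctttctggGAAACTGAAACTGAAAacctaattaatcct
OAS3, chr12:112938311-112938360, plus strand: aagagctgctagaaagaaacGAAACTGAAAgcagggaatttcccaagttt
IFIT1, chr10:89392487-89392536, plus strand: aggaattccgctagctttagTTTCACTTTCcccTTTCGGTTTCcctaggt
IFI44, chr1:78649751-78649788, plus strand: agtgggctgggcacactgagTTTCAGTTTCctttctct
IFIT5, chr10:89414503-89414552, plus strand: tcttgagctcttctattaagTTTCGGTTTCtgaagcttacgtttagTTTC
TRIM14, chr9:98119223-98119268, minus strand: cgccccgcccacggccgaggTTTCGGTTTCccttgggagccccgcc
RSAD2, chr2:6877612-6877661, plus strand: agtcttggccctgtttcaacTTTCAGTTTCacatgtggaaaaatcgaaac
PARP14, chr3:122680790-122680838, plus strand: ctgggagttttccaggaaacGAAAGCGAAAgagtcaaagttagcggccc
EPSTI1, chr13:42992262-42992311, minus strand: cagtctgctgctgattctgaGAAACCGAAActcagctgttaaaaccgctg
MX1, chr21:41431834-41431883, plus strand: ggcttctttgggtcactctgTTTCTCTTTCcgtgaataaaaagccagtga
ISG15 and BST2 carry 2 overlapping matches each, and IFIT1 2 matches side by side. OAS3 has 2 matches and IFIT5 has 3, of which the stretches above hold 1 each; the capitals at the end of the IFIT5 stretch are the first letters of its next match. A match describes letters in this window and says nothing about whether a factor was bound.

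The levels of the 54 genes ran from 0 in every library to 217 FPKM in 1 of them. Averaged over all libraries, 37 genes reached 1 FPKM and were tested, and 12 of these averaged 10 FPKM or more. The highest on average were BST2 (161 FPKM), LGALS3BP (87.2 FPKM), ADAR (52.2 FPKM) and IFITM3 (48.3 FPKM). The other 17 were not tested. Of them, 13 stayed under 0.2 FPKM in every library: IRF7, UBE2L6, OAS2, MX1, MX2, IFI44L, RSAD2, CMPK2, TRIM22, PARP14, SAMD9L, XAF1 and EPSTI1. CMPK2 and XAF1 were listed at 0 in all 12. The remaining 4, DDX58, HERC6, IFIT3 and SP110, averaged 0.846, 0.76, 0.492 and 0.586 FPKM. Of the 37 tested genes, 36 had a mean of at least 1 FPKM in every group, the exception being IFIT5 at 0.891 FPKM in OE_control.

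**Figure D1:**
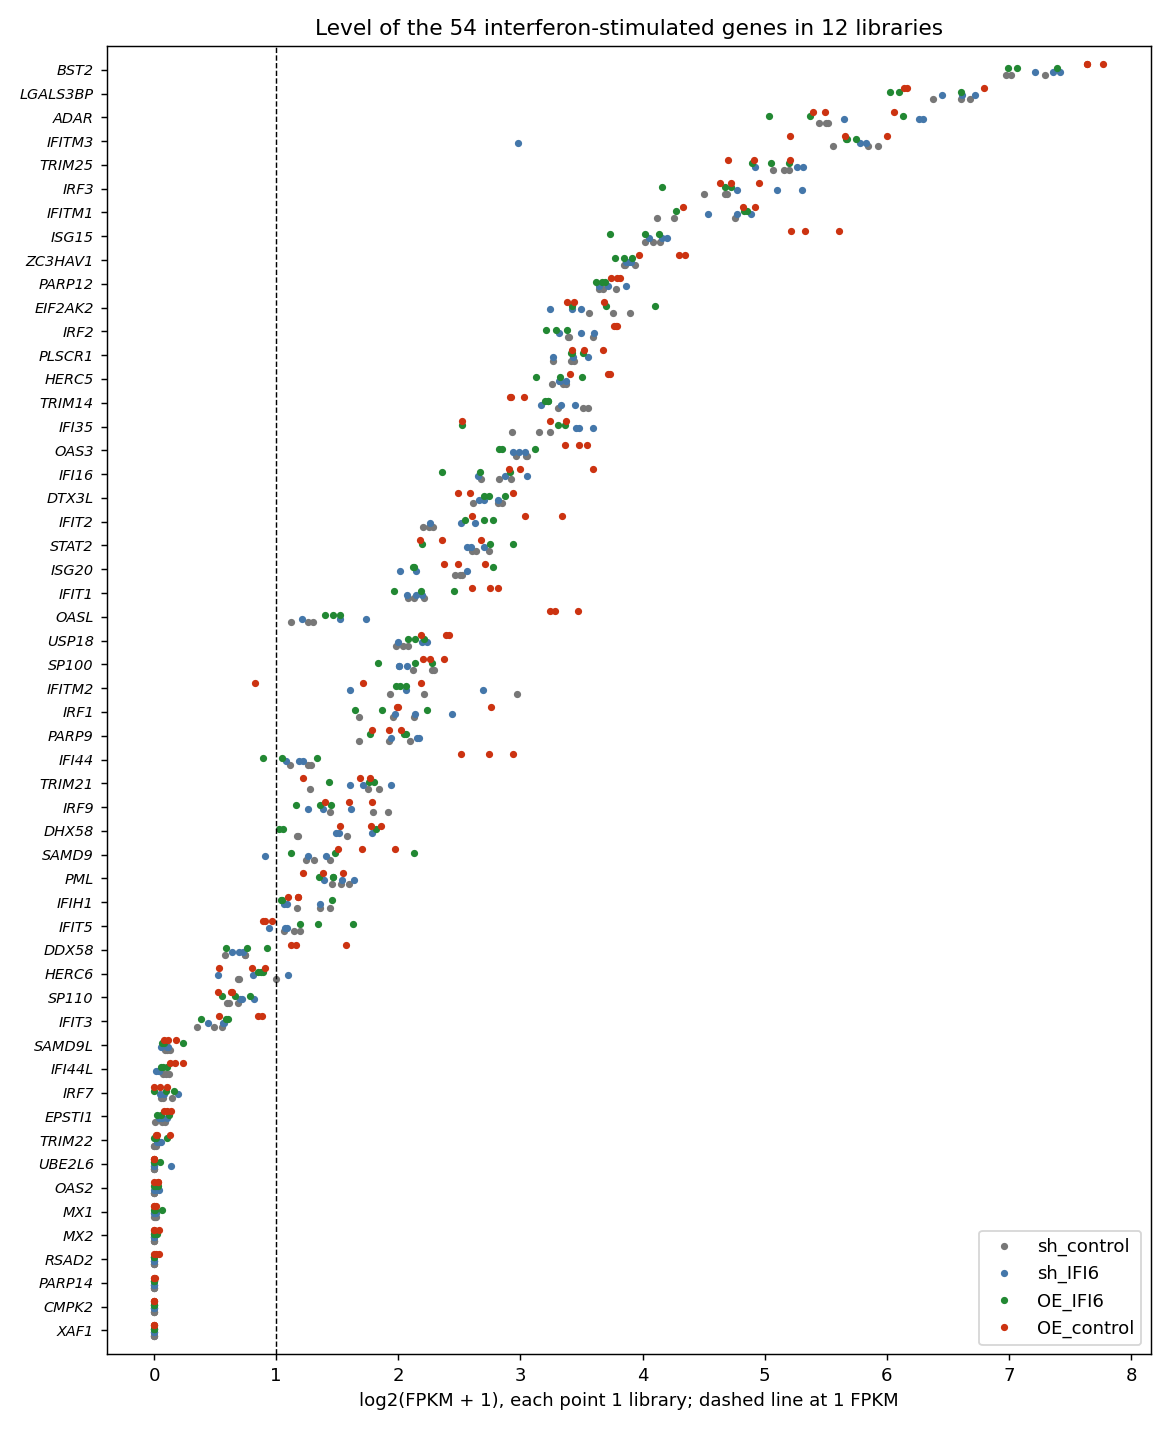
Level of each of the 54 genes on a log2(FPKM + 1) scale (x axis), with genes ordered by their mean over 12 libraries (y axis) and each point 1 library coloured by group. A block of 13 genes lies near 0 in every library, while the OE_control points of OASL, IFI44 and ISG15 lie far to the right of the other 9.

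Neighbouring and paralogous genes often differed in level. HERC5, the ligase that attaches ISG15 to proteins, averaged 9.63 FPKM, and the adjacent HERC6 0.76 FPKM. OAS3 averaged 7.69 FPKM and the adjacent OAS2 0.00913 FPKM. IFI44 averaged 2.35 FPKM and the adjacent IFI44L 0.0709 FPKM. SAMD9 averaged 1.82 FPKM and SAMD9L 0.0825 FPKM. Along the IFIT cluster of chromosome 10, IFIT2 averaged 5.21 FPKM, IFIT3 0.492 FPKM, IFIT1 4.02 FPKM and IFIT5 1.19 FPKM. FPKM is a per-length value, but what it sums can differ between genes: 28% of the IFIT2 value came from coding transcripts, which averaged 1.26 FPKM in OE_IFI6, 1.98 in OE_control, 1.52 in sh_IFI6 and 1.07 in sh_control.

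With IFI6 overexpressed, 7 of the 37 tested genes were lower than in OE_control: ISG15, OASL, IFI44, OAS3, BST2, IFIT1 and IRF2. One gene, IFIT5, was higher. The share that fell was 18.9%, against 3.56% of all 10925 genes tested, and the share that rose was 2.7%, against 4.1% (limma, Benjamini-Hochberg adjusted p under 0.05 over all genes). The median log2 difference was -0.15 over the 37 genes and 0.05 over all genes tested. ISG15, OASL and IFI44 differed by more than log2 1, and the others by about log2 0.5. OE_control was also high against sh_control: 7 of 37 genes rose (18.9%, against 2.75% of all genes) and 1 fell (2.7%, against 4.78%), with a median of 0.15 over the 37 and -0.09 over all genes. These comparisons share the OE_control libraries, so they are not independent of each other. In OE_IFI6 against sh_control, 0 of 37 genes rose and 0 fell by limma (0.0183% and 0% of all genes), and 2, IFIT2 and IRF9, had an unadjusted p under 0.05 (5.41%, against 4.6% of all genes). The count of 7 that fell became 4 without OE_IFI6 replicate 1 and 4 without OE_control replicate 3, and IFIT5 alone made up the rise. In a fit of only the 6 libraries compared, ISG15, OASL and IFI44 passed, while OAS3, BST2, IFIT1, IRF2 and IFIT5 did not (adjusted p 0.14 to 0.18). The same kind of fit for OE_control against sh_control ended the calls of IFIT2, OAS3 and TRIM14 (0.071, 0.071 and 0.062). For these refits the share of all genes called was not taken.

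**Figure D2:**
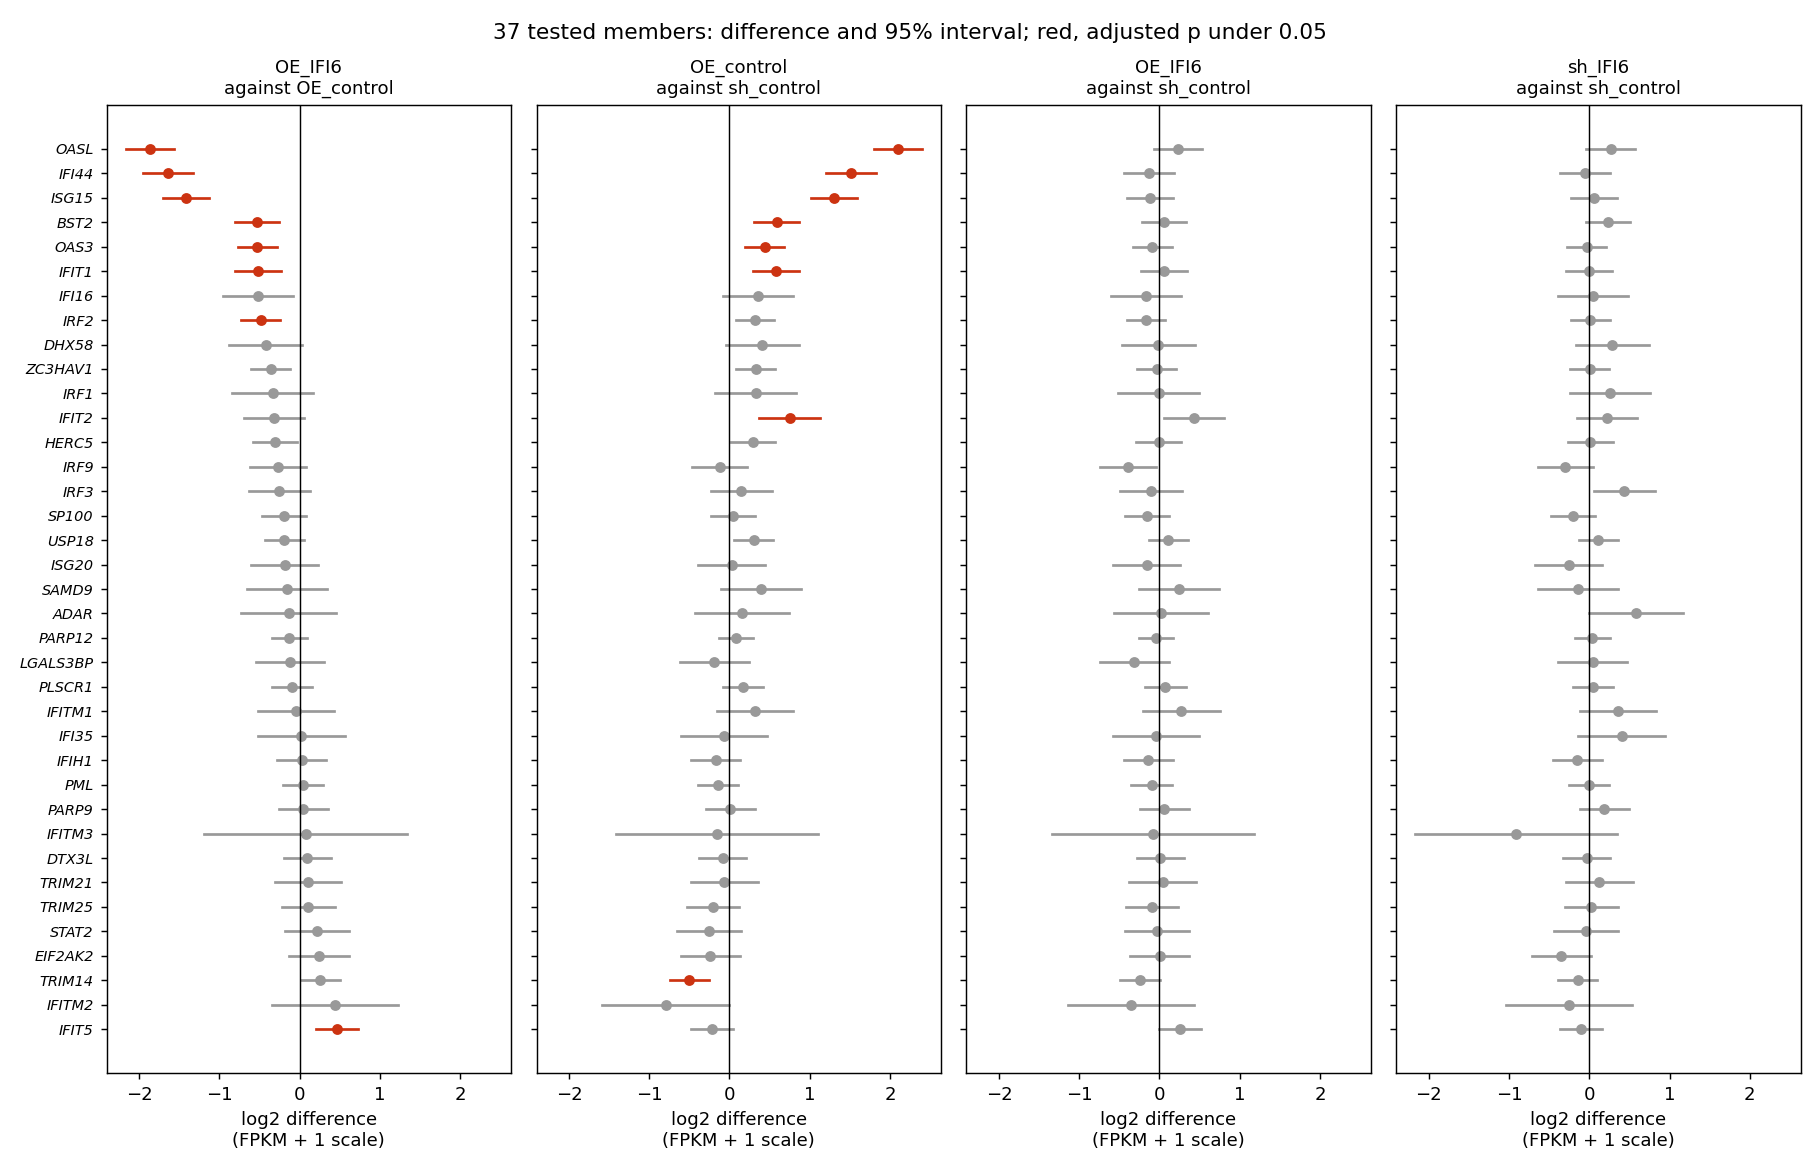
Log2 difference on the log2(FPKM + 1) scale (x axis) of the 37 tested genes (y axis) in 4 comparisons, with points for the estimate, bars for its 95% interval from limma, and red for an adjusted p under 0.05. Red points occur only in the panels that use OE_control, 8 in each, and the largest is OASL at -1.87 and 2.10.

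By library, the pattern lay in 1 group. In 8 genes (BST2, IFI44, IFIT1, IRF2, ISG15, OAS3, OASL and ZC3HAV1) the 3 OE_control libraries were the 3 highest of the 12 (21.6%, against 5.01% of all genes), and in TRIM14 they were the 3 lowest (2.7%, against 8.16%). In 9 genes (the same 8 and PARP12) all 3 OE_IFI6 libraries lay under all 3 OE_control libraries (24.3%, against 9.78% of all genes), and in 2, IFIT5 and TRIM14, all lay above (5.41%, against 13.5%). PARP12 drew 90.3% of its FPKM from annotated non-coding transcripts. Its coding transcripts went the other way, averaging 1.35 FPKM in OE_IFI6 and 0.622 FPKM in OE_control. The summed level of 11 leukocyte markers overlapped between OE_control and sh_IFI6, and OE_control lay above the other 2 groups. It ranged from 2.53 to 3.15 FPKM in OE_control, 1.51 to 1.92 in OE_IFI6, 1.79 to 3.14 in sh_IFI6 and 1.79 to 2.12 in sh_control. The macrophage marker CD68 averaged 0.731 FPKM in OE_IFI6, 1.30 in OE_control, 1.38 in sh_IFI6 and 0.835 in sh_control, with no call (limma adjusted p = 0.18 in OE_IFI6 against OE_control). The stratified-epithelial keratin KRT17 averaged 3.65 FPKM in OE_control and 0.724 FPKM in OE_IFI6 (log2 difference -1.44, limma adjusted p = 0.0012). It is 1 of 6 squamous markers, which summed to 55.3 to 68.4 FPKM in OE_IFI6, 55.1 to 72.8 in OE_control and 58.9 to 67.3 in sh_control. The 5 general epithelial markers summed to 1298 to 1680, 1092 to 1314 and 1180 to 1454 FPKM in the same order. Both sums overlapped between these groups. The part of these markers in the result was not tested. In bulk RNA, fewer cells with a transcript and less of it per cell cannot be told apart.

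**Figure D3:**
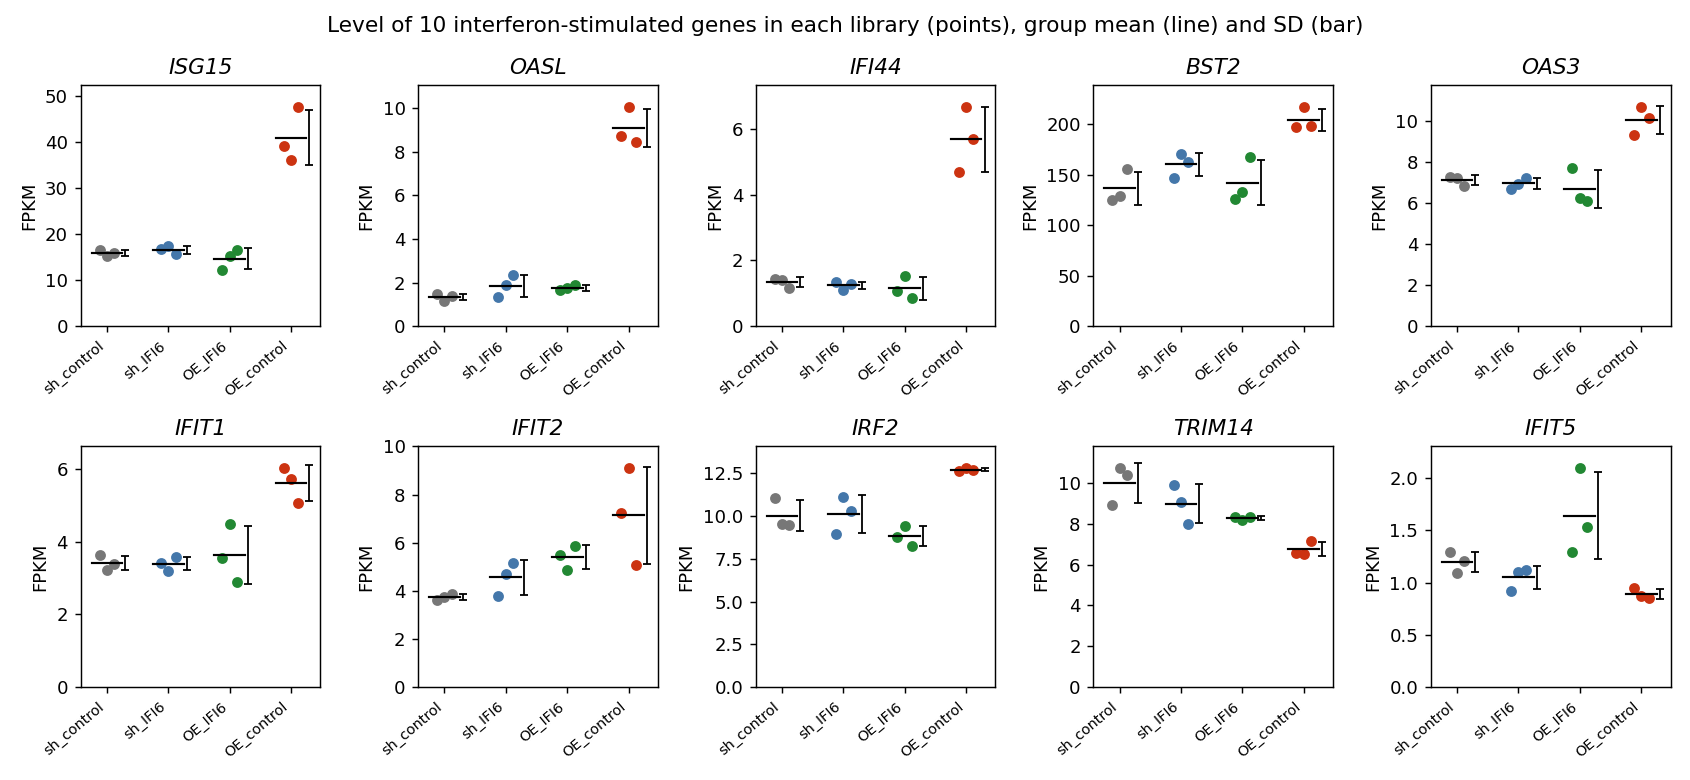
FPKM (y axis, from 0) of 10 genes that passed the test in a comparison, by group (x axis); points are libraries, the line is the mean and the bar the SD (n = 3). OE_control stands above the other 9 libraries in 7 panels, IFIT2 overlaps, and OE_control is lowest in TRIM14.

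Among the genes of the ISG15 system, ISG15 itself passed the threshold. ISG15 (ENSG00000187608, chromosome 1, 998961 to 1014540) is a ubiquitin-like protein that is attached to other proteins. It stood at 12.3, 15.3 and 16.6 FPKM in OE_IFI6, 39.3, 36.1 and 47.7 FPKM in OE_control, 16.9, 17.4 and 15.6 FPKM in sh_IFI6, and 16.7, 15.2 and 15.9 FPKM in sh_control. The OE_control libraries were all above the other 9, which lay between 12.3 and 17.4 FPKM. It was lower in OE_IFI6 than in OE_control by log2 -1.42 (SE 0.13, limma adjusted p = 9.9e-05) and higher in OE_control than in sh_control by 1.30 (SE 0.13, adjusted p = 0.00024). OE_IFI6 and sh_control differed by -0.12 (95% interval -0.40 to 0.17).

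The enzymes that handle ISG15 gave no call in these comparisons. The ligase HERC5 stood at 9.01, 10.3 and 7.72 FPKM in OE_IFI6 and 12.3, 12.1 and 9.59 FPKM in OE_control, which overlapped (log2 -0.30, limma adjusted p = 0.18). USP18, which removes ISG15 and restrains the receptor, averaged 3.42 ± 0.203 FPKM in OE_IFI6 and 4.05 ± 0.427 FPKM in OE_control (SD, n = 3; log2 -0.19, limma adjusted p = 0.33). For both HERC5 and USP18, all 3 OE_control libraries lay above all 3 sh_control libraries. USP18 stood at 3.56, 4.26 and 4.33 FPKM in OE_control and 3.10, 2.94 and 3.21 FPKM in sh_control. Both genes had an unadjusted limma p under 0.05 in that comparison, as did 24.4% of all genes tested. TRIM25, a ubiquitin ligase that acts on the sensor RIG-I, averaged 32.9 FPKM over all libraries, with a difference of 0.11 (95% interval -0.21 to 0.44). UBE2L6, the conjugating enzyme for ISG15, was at or under 0.0985 FPKM in every library.

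OASL and OAS3 both fell. OAS proteins make short oligoadenylates that activate the nuclease RNase L, and OASL, which lacks that activity, acts with RIG-I. OASL (ENSG00000135114, chromosome 12, 121019111 to 121039242) stood at 1.64, 1.75 and 1.88 FPKM in OE_IFI6 and 8.75, 10.1 and 8.44 FPKM in OE_control. It stood at 1.32, 1.88 and 2.33 FPKM in sh_IFI6 and 1.46, 1.18 and 1.40 FPKM in sh_control. No library outside OE_control exceeded 2.33 FPKM. The OE_control mean was 5.17 times that of OE_IFI6 and 6.75 times that of sh_control. The log2 difference was -1.87 in OE_IFI6 against OE_control (SE 0.14, limma adjusted p = 1.6e-05), 2.10 in OE_control against sh_control (adjusted p = 1.5e-05), and 0.23 in OE_IFI6 against sh_control (95% interval -0.07 to 0.53).

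OAS3 (ENSG00000111331, chromosome 12, 112938444 to 112973251) stood at 7.71, 6.22 and 6.08 FPKM in OE_IFI6, 9.29, 10.7 and 10.1 FPKM in OE_control, 6.68, 6.94 and 7.22 FPKM in sh_IFI6, and 7.28, 7.23 and 6.82 FPKM in sh_control. OE_control lay above the rest with no overlap, by a smaller margin than in OASL. The log2 difference was -0.53 (SE 0.11, limma adjusted p = 0.015) in OE_IFI6 against OE_control and 0.44 (adjusted p = 0.034) in OE_control against sh_control, while OE_IFI6 against sh_control gave -0.09 (95% interval -0.33 to 0.16). The first of these missed the threshold without OE_IFI6 replicate 2 (adjusted p = 0.05). The second missed it without OE_control replicate 2 or 3 (0.077 and 0.087), any sh_IFI6 library (0.051 to 0.053) or any sh_control library (0.083, 0.094 and 0.12), and with coding transcripts alone (0.065).

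IFI44 was also highest in OE_control, while its neighbour IFI44L stayed near 0. IFI44 (ENSG00000137965, chromosome 1, 78649796 to 78664078) is a cytoplasmic protein induced by interferon. It stood at 1.07, 1.53 and 0.851 FPKM in OE_IFI6, 4.69, 6.67 and 5.70 FPKM in OE_control, 1.33, 1.11 and 1.28 FPKM in sh_IFI6, and 1.44, 1.40 and 1.16 FPKM in sh_control. The 9 libraries outside OE_control did not exceed 1.53 FPKM. The log2 difference was -1.64 (SE 0.14, limma adjusted p = 6.3e-05) in OE_IFI6 against OE_control, 1.51 (adjusted p = 0.00016) in OE_control against sh_control, and -0.13 (95% interval -0.44 to 0.19) in OE_IFI6 against sh_control. IFI44L averaged 0.134 ± 0.0438 FPKM in OE_control and 0.0552 ± 0.0192 FPKM in OE_IFI6 (SD, n = 3), too low to be tested. IFI35, which pairs with the regulator NMI, averaged 7.65 FPKM in OE_IFI6 and 7.50 FPKM in OE_control (log2 0.02, 95% interval -0.52 to 0.56).

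IFIT proteins bind foreign RNA, and members of this family went in different directions. IFIT1 (ENSG00000185745, chromosome 10, 89392546 to 89406487) stood at 3.55, 4.49 and 2.90 FPKM in OE_IFI6, 6.05, 5.74 and 5.07 FPKM in OE_control, 3.42, 3.20 and 3.57 FPKM in sh_IFI6, and 3.63, 3.24 and 3.38 FPKM in sh_control. All OE_control libraries were above the rest. It fell by 0.52 on the log2 scale in OE_IFI6 against OE_control (SE 0.13, limma adjusted p = 0.033) and was higher in OE_control than in sh_control by 0.58 (adjusted p = 0.022). OE_IFI6 and sh_control differed by 0.06 (95% interval -0.23 to 0.35). The fall held without OE_IFI6 replicate 2 and without sh_control replicate 1, and missed the threshold without any 1 of the other 10 libraries (adjusted p 0.05 to 0.093). The rise missed it without OE_control replicate 1 (0.069) or sh_control replicate 1, 2 or 3 (0.052, 0.084 and 0.072).

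IFIT5 (ENSG00000152778, chromosome 10, 89414568 to 89420997) was the gene that rose. It stood at 1.29, 2.10 and 1.53 FPKM in OE_IFI6, 0.948, 0.872 and 0.852 FPKM in OE_control, 0.923, 1.11 and 1.12 FPKM in sh_IFI6, and 1.29, 1.09 and 1.21 FPKM in sh_control. The OE_IFI6 libraries lay above OE_control, and the lowest of them was level with the highest of sh_control. The log2 difference was 0.47 (SE 0.12, limma adjusted p = 0.036). It kept its call without OE_IFI6 replicate 1 and missed the threshold without any 1 of the other 11 libraries (adjusted p 0.051 to 0.11), under quantile normalization (0.074) and with coding transcripts alone (0.055). Against sh_control the difference of OE_IFI6 was 0.25 (95% interval -0.01 to 0.52).

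IFIT2 (ENSG00000119922, chromosome 10, 89283694 to 89309271) stood at 5.50, 4.85 and 5.86 FPKM in OE_IFI6, 7.22, 9.12 and 5.07 FPKM in OE_control, 3.78, 4.71 and 5.17 FPKM in sh_IFI6, and 3.60, 3.75 and 3.87 FPKM in sh_control. OE_control overlapped OE_IFI6 (log2 -0.32, limma adjusted p = 0.29) and lay above sh_control (0.75, SE 0.17, adjusted p = 0.023). OE_IFI6 also lay above sh_control, by 0.43 (95% interval 0.06 to 0.81), which missed the threshold (limma adjusted p = 1). The rise in OE_control against sh_control missed the threshold without OE_control replicate 1 or 2 (0.068 and 0.056) or sh_control replicate 1, 2 or 3 (0.074, 0.076 and 0.063). Only 28% of the gene's summed FPKM came from annotated coding transcripts. IFIT3, below the level tested, stood at 0.508, 0.518 and 0.309 FPKM in OE_IFI6 and 0.450, 0.804 and 0.846 FPKM in OE_control, which overlapped. It stood at 0.476, 0.483 and 0.361 FPKM in sh_IFI6 and 0.274, 0.404 and 0.467 FPKM in sh_control.

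Of the membrane and nucleotide effectors, BST2 fell and the IFITM genes gave no call. BST2 (ENSG00000130303, chromosome 19, 17402939 to 17405630), or tetherin, holds budding virus particles at the cell surface. It stood at 126, 133 and 167 FPKM in OE_IFI6, 198, 217 and 199 FPKM in OE_control, 147, 170 and 163 FPKM in sh_IFI6, and 125, 129 and 156 FPKM in sh_control. The OE_control libraries were all above the other 9. The log2 difference was -0.53 (SE 0.13, limma adjusted p = 0.027) in OE_IFI6 against OE_control and 0.59 (adjusted p = 0.018) in OE_control against sh_control, and OE_IFI6 against sh_control gave 0.06 (95% interval -0.22 to 0.33). The fall missed the threshold without OE_IFI6 replicate 1 or 2 (0.089 and 0.086) or OE_control replicate 1, 2 or 3 (0.052, 0.068 and 0.061), and the rise without sh_control replicate 1 or 2 (0.071 and 0.077).

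IFITM proteins block fusion of viruses with membranes. Because IFITM1, IFITM2 and IFITM3 are close copies of each other, how reads were split between them is uncertain. IFITM1 averaged 24.5 ± 5.42 FPKM in OE_IFI6 and 25.3 ± 5.43 FPKM in OE_control (SD, n = 3; log2 -0.04, 95% interval -0.52 to 0.44). IFITM3 varied in 1 library: sh_IFI6 replicate 1 stood at 6.89 FPKM and replicates 2 and 3 at 55.8 and 54 FPKM, against 46.1, 59.8 and 56.6 FPKM in sh_control. Its knockdown difference of -0.91 (SE 0.58, limma adjusted p = 0.82) became 0.03 (adjusted p = 0.98) without that library. RSAD2, or viperin, was listed at 0 in 10 libraries and at 0.00969 and 0.0258 FPKM in OE_control replicates 1 and 3.

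Of the transcription factors, IRF2 fell. IRF2 (ENSG00000168310, chromosome 4, 184387729 to 184474550), known as an antagonist of IRF1 at shared elements, stood at 8.80, 9.40 and 8.24 FPKM in OE_IFI6, 12.6, 12.8 and 12.7 FPKM in OE_control, 8.96, 11.1 and 10.3 FPKM in sh_IFI6, and 11.1, 9.53 and 9.48 FPKM in sh_control. The OE_control values were nearly alike and above the rest. The log2 difference was -0.49 (SE 0.11, limma adjusted p = 0.021) in OE_IFI6 against OE_control, and it missed the threshold without OE_IFI6 replicate 1 (0.054) or OE_control replicate 3 (0.06). OE_control against sh_control gave 0.32 (adjusted p = 0.1), which passed under median-of-ratios scaling (0.048) and quantile normalization (0.044). OE_IFI6 against sh_control gave -0.17 (95% interval -0.41 to 0.08).

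STAT2 and IRF9, both parts of ISGF3, gave no call. STAT2 stood at 5.74, 3.59 and 6.65 FPKM in OE_IFI6, 3.53, 4.14 and 5.40 FPKM in OE_control, 5.05, 4.91 and 5.51 FPKM in sh_IFI6, and 5.09, 5.21 and 5.67 FPKM in sh_control. These overlapped (log2 0.22, 95% interval -0.18 to 0.62, in OE_IFI6 against OE_control, and -0.01 with coding transcripts alone). IRF9 stood at 1.23, 1.57 and 1.73 FPKM in OE_IFI6, 2.45, 2.03 and 1.63 FPKM in OE_control, 1.61, 1.40 and 2.06 FPKM in sh_IFI6, and 2.76, 2.47 and 1.72 FPKM in sh_control. Its groups overlapped, and OE_IFI6 differed from OE_control by -0.27 (SE 0.16, limma adjusted p = 0.34).

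Of the other regulators, IRF1 and IRF3 gave no call and IRF7 was too low to be tested. IRF1, a broad activator, stood at 2.12, 2.65 and 3.71 FPKM in OE_IFI6, 2.97, 2.99 and 5.78 FPKM in OE_control, 4.42, 2.93 and 3.39 FPKM in sh_IFI6, and 2.21, 3.38 and 2.89 FPKM in sh_control. IRF3, which acts downstream of nucleic acid sensors, averaged 26.3 FPKM over all libraries. IRF7, which amplifies the response, stood at 0.0688, 0 and 0.118 FPKM in OE_IFI6, 0.0354, 0 and 0.0763 FPKM in OE_control, 0.0555, 0.149 and 0.0322 FPKM in sh_IFI6, and 0.0512, 0.108 and 0.0382 FPKM in sh_control. It was near 0 in every group.

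Among sensors, the RIG-I gene DDX58 averaged 0.846 FPKM and was not tested. It stood at 0.697, 0.899 and 0.503 FPKM in OE_IFI6, 1.23, 1.97 and 1.17 FPKM in OE_control, 0.557, 0.620 and 0.656 FPKM in sh_IFI6, and 0.494, 0.678 and 0.672 FPKM in sh_control. Its OE_control libraries were the 3 highest, and no other library reached 1 FPKM. IFIH1 (MDA5), which senses long double-stranded RNA, averaged 1.29 ± 0.397 FPKM in OE_IFI6 and 1.23 ± 0.0744 FPKM in OE_control (SD, n = 3; log2 0.03, 95% interval -0.28 to 0.33). DHX58 (LGP2), a regulator of both sensors, stood at 1.03, 1.07 and 2.52 FPKM in OE_IFI6 and 1.87, 2.42 and 2.63 FPKM in OE_control (log2 -0.42, limma adjusted p = 0.25). The DNA sensor IFI16 stood at 5.35, 6.56 and 4.11 FPKM in OE_IFI6 and 11.1, 6.97 and 6.48 FPKM in OE_control, which overlapped (log2 -0.52, limma adjusted p = 0.14). Its coding transcripts averaged 5.23 FPKM in OE_IFI6 and 5.49 FPKM in OE_control, and its annotated non-coding transcripts 0.109 and 2.70 FPKM.

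TRIM14, a TRIM family adaptor of antiviral signalling at mitochondria (ENSG00000106785, chromosome 9, 98069275 to 98119222), was lowest in OE_control. It stood at 8.36, 8.19 and 8.34 FPKM in OE_IFI6, 6.59, 6.54 and 7.14 FPKM in OE_control, 9.90, 9.10 and 7.98 FPKM in sh_IFI6, and 8.91, 10.8 and 10.4 FPKM in sh_control. OE_control did not overlap the other groups. It was lower in OE_control than in sh_control by log2 -0.50 (SE 0.11, limma adjusted p = 0.019), and this missed the threshold without OE_control replicate 1 (0.055) or sh_control replicate 2 or 3 (0.087 and 0.078), and under quantile normalization (0.08). OE_IFI6 against OE_control gave 0.26 (adjusted p = 0.18), and against sh_control -0.24 (95% interval -0.48 to 0.00157). TRIM21, a receptor for antibody-bound virus, averaged 2.19 FPKM in OE_IFI6 and 1.98 FPKM in OE_control.

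Several effectors gave no call in any comparison. ZC3HAV1, which binds CpG-rich viral RNA, stood at 14, 13.4 and 12.7 FPKM in OE_IFI6, 14.7, 19.3 and 18.6 FPKM in OE_control, 14, 13.8 and 13.6 FPKM in sh_IFI6, and 13.4, 14.3 and 13.4 FPKM in sh_control. OE_control did not overlap the rest, and the difference of OE_IFI6 from it was -0.36 (SE 0.11, limma adjusted p = 0.076), against -0.03 (95% interval -0.28 to 0.21) from sh_control. The double-stranded RNA kinase EIF2AK2 (PKR) averaged 12.6 ± 3.26 FPKM in OE_IFI6 and 10.4 ± 1.28 FPKM in OE_control (SD, n = 3; log2 0.24, 95% interval -0.13 to 0.61). The RNA-editing enzyme ADAR ranged from 31.8 to 69.3 FPKM within OE_IFI6 and from 41.0 to 65.7 FPKM within OE_control. The exonuclease ISG20 stood at 3.38, 3.35 and 5.83 FPKM in OE_IFI6, 4.63, 4.18 and 5.55 FPKM in OE_control, 4.90, 3.04 and 3.41 FPKM in sh_IFI6, and 4.68, 4.75 and 4.52 FPKM in sh_control, which overlapped. PARP9 and its partner DTX3L differed by 0.05 and 0.10 between OE_IFI6 and OE_control, and PML and SP100 of the nuclear bodies by 0.04 and -0.20 (limma adjusted p 0.37 to 0.88). 

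The MX genes were nearly silent. The GTPase MX1, which traps viral nucleocapsids, was listed at 0.0473, 0.00719 and 0 FPKM in OE_IFI6, 0.00951, 0 and 0 FPKM in OE_control, 0, 0 and 0.0086 FPKM in sh_IFI6, and 0, 0.011 and 0.00772 FPKM in sh_control. Its relative MX2 did not exceed 0.0283 FPKM.

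In the knockdown, 0 of the 37 genes passed by limma (0% of all genes tested also passed), and 1, IRF3, had an unadjusted p under 0.05 (2.7%, against 5.15% of all genes). IRF3 stood at 38.4, 26.3 and 33.4 FPKM in sh_IFI6 and 24.5, 21.7 and 24.9 FPKM in sh_control, all higher (log2 0.43, SE 0.17, limma adjusted p = 0.82). All 3 sh_IFI6 libraries lay above sh_control in 3 genes, ADAR, IFI35 and IRF3 (8.11%, against 9.46% of all genes), and below it in 2, EIF2AK2 and SP100 (5.41%, against 9.61%). ADAR averaged 67.6 ± 15.9 FPKM in sh_IFI6 and 43.9 ± 1.18 FPKM in sh_control (SD, n = 3; log2 0.58, 95% interval -0.01 to 1.17). The median over the 37 genes was 0.01 and over all genes 0.00480. IFI6 itself averaged 14.6 FPKM in sh_IFI6 and 23.4 FPKM in sh_control, and this difference also missed the threshold (log2 -0.64, unadjusted p = 0.0024, limma adjusted p = 0.82).

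The effects of overexpression and knockdown, each against its own control, differed in 4 genes by the interaction term, all with a difference below 0 (10.8%, against 1.51% of all genes). OASL gave -2.13 (limma adjusted p = 0.00025), IFI44 -1.58 (adjusted p = 0.0023), ISG15 -1.48 (adjusted p = 0.0021) and BST2 -0.76 (adjusted p = 0.047). The knockdown differences of OASL, IFI44 and ISG15 were 0.26 (95% interval -0.04 to 0.56), -0.06 (-0.37 to 0.26) and 0.06 (-0.23 to 0.35). BST2 kept its interaction call without OE_IFI6 replicate 3 and without sh_control replicate 3, and missed the threshold without any 1 of the other 10 libraries (adjusted p 0.063 to 0.13). It also missed it with no filter (0.057), without the trend (0.057), with quantile normalization (0.061), in the table of all annotated genes (0.051) and with coding transcripts alone (0.067).

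The deposited transcript table showed which transcripts carried these values. A gene's FPKM equals the sum over its transcripts within 0.001 FPKM for 99.99% of genes. Of the 37 genes, 24 drew at least 80% of their FPKM from annotated coding transcripts, and 5 drew under 50%: STAT2 (43.6%), PML (43.0%), IFIT2 (28%), IRF9 (21.3%) and PARP12 (9.75%). In ISG15, 75.6% came from coding transcripts and 24.4% from assembled transcripts that reach over the adjacent HES4. The coding part averaged 9.67 FPKM in OE_IFI6 and 35.5 FPKM in OE_control, against 11.8 FPKM in sh_IFI6 and 9.77 FPKM in sh_control. The assembled part was level, at 5.06, 5.56, 4.79 and 6.17 FPKM in the same order. In IFIT2, 72% came from assembled transcripts that overlap AL353751.1, which averaged 12.7 FPKM in OE_IFI6, 22.5 in OE_control, 13.8 in sh_IFI6 and 12.6 in sh_control. With coding transcripts alone, IFIT2 no longer passed in OE_control against sh_control (log2 0.49, limma adjusted p = 0.21).

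**Figure D4:**
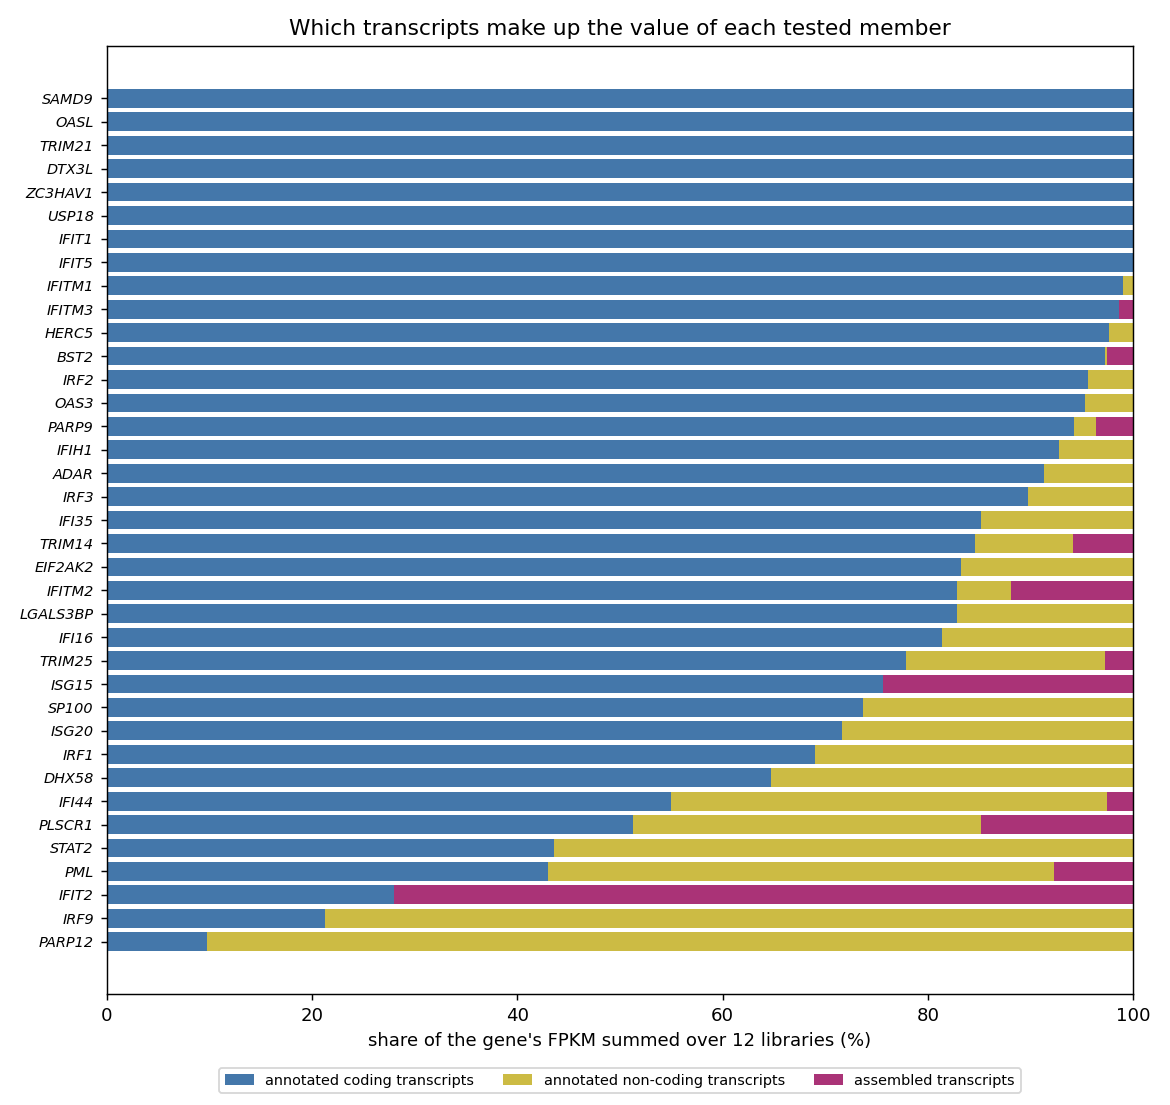
Share of each tested gene's FPKM, summed over 12 libraries (x axis, %), that came from annotated coding, annotated non-coding and assembled transcripts (37 genes on the y axis). PARP12, IRF9 and IFIT2 have the smallest coding shares, at 9.75%, 21.3% and 28%, and ISG15 has an assembled share of 24.4%.

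Of 46 coding transcripts tested, from 31 of the genes, 3 fell in OE_IFI6 against OE_control (0.875% of all 17030 transcripts tested fell) and 0 rose (0.857%). ISG15-203 averaged 9.66 ± 1.90 FPKM in OE_IFI6 and 35.3 ± 5.49 FPKM in OE_control (SD, n = 3; log2 -1.78, SE 0.17, limma adjusted p = 0.00089). OASL-201 averaged 1.1 ± 0.229 FPKM in OE_IFI6 and 4.46 ± 1.01 FPKM in OE_control (SD, n = 3; log2 -1.37, limma adjusted p = 0.022). IFI44-201 stood at 0.527, 0.862 and 0.414 FPKM in OE_IFI6 and 1.83, 4.84 and 3.55 FPKM in OE_control (log2 -1.41, limma adjusted p = 0.038). Without OE_control replicate 2, 1 gene kept a called transcript. OASL-202 (-1.65, adjusted p = 0.055), OAS3-201 (-0.63, adjusted p = 0.062) and BST2-201 (-0.50, adjusted p = 0.1) missed the threshold.

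The loci of 20 of the 54 genes, 17 of them tested, overlap another gene of at least 1 FPKM. No label or header says if counting used strand, so such reads may not have been told apart. LIPA (chromosome 10, 89213569 to 89414647) spans IFIT1, IFIT2 and IFIT3 and reaches the start of IFIT5, and it averaged 91.4 FPKM in OE_IFI6, 101 in OE_control, 103 in sh_IFI6 and 101 in sh_control. MVB12A overlaps BST2 and averaged 54.2, 69.2, 62.0 and 59.6 FPKM in the same order. AC004551.2 overlaps OAS3 and averaged 1.14, 1.68, 1.1 and 1.22 FPKM. OASL, IFI44 and IRF2 overlap no such gene.

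Much of the pathway upstream of these genes was present, while the ligands checked were low or listed at 0. IFNB1, IFNK, IFNW1, IFNG, IFNL1, IFNL2 and IFNL3 were listed at 0 in all 12 libraries, IFNA1 in 11, and IFNE did not exceed 0.207 FPKM. The interferon-lambda receptor chain IFNLR1 was at or under 0.0218 FPKM. MYD88, TLR3 and SOCS1 averaged 0.0863, 0.208 and 0.409 FPKM and were not tested. The receptor chains IFNAR1 and IFNAR2 averaged 4.37 and 7.57 FPKM in OE_control and 5.0 and 8.94 FPKM in OE_IFI6, and the kinases JAK1 and TYK2 averaged 110 and 23.8 FPKM in OE_control. The transcription factor STAT3 and the interferon-gamma receptor chains IFNGR2 and IFNGR1 averaged 43.2, 27.1 and 14.4 FPKM over all libraries. Of 23 tested pathway genes 3 fell in OE_IFI6 against OE_control (3.56% of all genes) and 0 rose (4.1%). None passed by limma in the other comparisons, where 3 had an unadjusted p under 0.05 in OE_control against sh_control (24.4% of all genes), 1 in OE_IFI6 against sh_control and 0 in the knockdown.

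IL10RB, a receptor chain shared by interferon-lambda and interleukin-10, stood at 11, 12 and 14 FPKM in OE_IFI6, 24.2, 25.5 and 23.5 FPKM in OE_control, 20.8, 12.5 and 24.1 FPKM in sh_IFI6, and 22.2, 20.8 and 20.2 FPKM in sh_control. OE_IFI6 lay below both controls, by log2 -0.93 against OE_control (limma adjusted p = 0.012) and by -0.73 against sh_control (95% interval -1.14 to -0.32, adjusted p = 0.8). The feedback inhibitor SOCS3 averaged 16.9 FPKM in OE_IFI6 and 24.0 FPKM in OE_control (log2 -0.50, limma adjusted p = 0.029), and 21.1 and 18.3 FPKM in sh_IFI6 and sh_control, where OE_IFI6 differed from sh_control by -0.12 (95% interval -0.38 to 0.15). The DNA sensor CGAS averaged 17.3 FPKM in OE_IFI6, 22.6 in OE_control, 17.2 in sh_IFI6 and 17.4 in sh_control (log2 -0.37, limma adjusted p = 0.048, in OE_IFI6 against OE_control, and -0.01, 95% interval -0.23 to 0.21, against sh_control). Without OE_IFI6 replicate 2, or without OE_control replicate 1, 2 or 3, 1 pathway gene passed, and 2 passed without any 1 of the other 8 libraries.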

How the data were processed

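FPKM values per gene and per transcript in 12 TE-1 libraries were computed by the authors and used as deposited. HISAT2, StringTie, Cuffdiff and edgeR are named, without roles or versions, per the submitters' processing notes. No label or header gives genome build, annotation or strand use; all 54 gene identifiers were found in GENCODE 29 (GRCh38) at overlapping positions, 25 with the same bounds. Groups and replicate numbers come from the sample titles. The genes and gene lists were chosen with earlier results of these data known.

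Of 19771 protein-coding genes, the 10925 that averaged 1 FPKM or more were analysed as log2(FPKM + 1), a scale that understates changes of low genes. Tables were read with data.table, version 1.17.8, in R 4.3.3. A model of group means was fitted with limma 3.58.1 (trended prior, 8 residual degrees of freedom). All tests were two-sided. The threshold was an adjusted p of 0.05 (Benjamini-Hochberg over all genes), and "rose", "fell" and "call" refer to it. Coding transcripts were tested alike (17030). The fit was tested on simulated data. Values lay only partly on whole-read steps, which were sought in 21253 single-transcript genes. Of the low values above 0 in a library, 11.8% to 34.0% lay within 1% of a step. Counts thus could not be recovered or tested. Where the steps were clearer, they put the libraries within a factor of 1.28 in depth. In OE_control replicate 1 (12.2%), sh_IFI6 replicates 1 and 3 (11.9% and 12.3%) and sh_control replicate 3 (11.8%) few values lay on a step. The depth of these libraries is thus uncertain. An exact 0 is written as listed at 0: of 81 ribosomal protein genes, 4 had a library at 0 and 3 were at 0 in all 12.

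Genes named with all libraries are those past the threshold in a comparison, plus IFIT3, MX1, STAT2, IRF1, IRF7, IRF9 and ISG20, and for the pathway those that passed and the most abundant; others shown in full, such as DDX58, ZC3HAV1 and IFITM3, were chosen after their values were seen. Alternatives were quantile normalization, median-of-ratios scaling, limma with a robust prior or without trend, a pseudocount of 0.1, a minimum of 5 FPKM or no filter, a replicate block, fits of only the libraries compared, the table that holds every annotated gene, and omission of each library; coding transcripts summed per gene were added after seeing the data. Promoter letters were searched in Python 3.11.15 with pandas 2.3.3 and numpy 2.4.6, and plots drawn with matplotlib 3.10.9. The lncRNA transcript table was not used.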

Additional observations from a re-analysis of the deposited data

Results flagged for a closer look

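In 4 genes the effect of overexpression (OE_IFI6 against OE_control) differed from that of knockdown (sh_IFI6 against sh_control) by the interaction term of the limma fit. The difference was -1.48 on the log2 scale for ISG15 (adjusted p = 0.0021), -2.13 for OASL (adjusted p = 0.00025), -1.58 for IFI44 (adjusted p = 0.0023) and -0.76 for BST2 (adjusted p = 0.047). In each of the 4, the OE_control libraries were the 3 highest of 12. OE_IFI6 differed from sh_control by -0.12 for ISG15, 0.23 for OASL, -0.13 for IFI44 and 0.06 for BST2.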

How the results depend on the processing

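No called value changed sign under any alternative run. Values that were not called did, in 44 of 1556 values for single genes (16 of 70 differences): with coding transcripts alone, STAT2 went from -0.25 to 0.43 in OE_control against sh_control and IFI44 from -0.13 to 0.16 in OE_IFI6 against sh_control. ISG15, OASL and IFI44 kept their calls in OE_IFI6 against OE_control, OE_control against sh_control and the interaction in every alternative that tested them. With a minimum mean of 5 FPKM, which drops OASL, IFI44, IFIT1 and IFIT5 from the test, 4 genes fell and 0 rose in OE_IFI6 against OE_control, 4 rose in OE_control against sh_control, and 2 passed the interaction; of pathway genes, 1 passed in OE_control against sh_control and 1 in the interaction. Fitting only the libraries compared left 3 falls, 0 rises and 1 pathway gene in OE_IFI6 against OE_control, and 0 falls in OE_control against sh_control. Counts also went up in places. Leaving aside omitted libraries, the alternatives gave 3 to 9 falls in OE_IFI6 against OE_control and 4 to 9 rises in OE_control against sh_control, each 7 in the main fit. Quantile normalization gave 0 rises, 0 falls in OE_control against sh_control and 1 pathway gene in the interaction. Median-of-ratios scaling gave 2 pathway genes in OE_control against sh_control and 1 in the interaction, and no filter gave 1 in OE_control against sh_control. Summed coding transcripts gave 0 rises in OE_IFI6 against OE_control. The cause of these changes was not tested beyond the genes dropped or the samples left out. Shares of all genes called were taken for the main fit only. For an alternative or an omitted library, fewer calls in these genes and fewer calls in general thus cannot be told apart.

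Deviations from the group means correlated between same-numbered libraries at 0.0872, 0.254 and 0.124 in the overexpression pairs. In the knockdown pairs they correlated at -0.0432, -0.00953 and -0.0344. The overexpression values were all above 0, so a link between same-numbered libraries there remains possible, and the labels do not state one. With the replicate block, 0 genes rose in OE_IFI6 against OE_control (IFIT5 adjusted p = 0.054), 7 fell, OAS3 missed the threshold in OE_control against sh_control (0.054), and 1 gene had a called transcript.

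Leaving out each library in turn gave 4 to 7 falls and 0 to 1 rises in OE_IFI6 against OE_control, 3 to 7 rises and 0 to 1 falls in OE_control against sh_control, and 3 to 5 genes in the interaction. Pathway genes numbered 1 to 2, 0 to 2 and 0 to 1 in these comparisons, and genes with a called transcript 1 to 3. In the knockdown and in OE_IFI6 against sh_control, 0 genes passed in each. Of the 1556 values for single genes, 1473 stayed on their side of the threshold, 81 missed it and 2 came to pass it; of 184 medians, 1 moved by more than the spread between libraries.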
